A study of Mus musculus with 20 samples.

Results

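Open chromatin was examined around 6 genes for B-lineage transcription factors, Pax5, Ebf1, Ikzf1, Foxo1, Bach2 and Ets1, in B-lineage cells of naïve mice that the study calls B-cell precursors and immature B cells (BMBP). Peaks of all 12 ATAC-seq libraries were merged where they shared at least 1 base, which gave 101333 regions over the genome (mm10). The 280 regions that lay inside a fixed window around one of the genes are described here. The windows held 69 regions at Bach2, 55 at Ebf1, 45 at Ets1, 43 at Ikzf1, 38 at Pax5 and 30 at Foxo1. The libraries formed 4 groups of 3: CSF1R+ and CSF1R- cells from the bone marrow (BM), and CSF1R+ and CSF1R- cells from the spleen. CSF1R is the receptor for the macrophage growth factor M-CSF. All groups came from untreated female mice that the methods give as 8 to 12 weeks old. The strain used for ATAC-seq, and whether animals were pooled, are not given in the sources used here, so p-values measure only the spread between these libraries. ATAC-seq inserts sequencing adapters into accessible DNA with the Tn5 transposase, and a peak marks a stretch of open chromatin.

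The sample labels name the cell type as macrophage, whereas the study describes the cells as B-lineage, and peaks at the start sites of marker genes were read to check this. Of 12 B-lineage markers, 11 had a peak at the start in every BM library and 9 in every spleen library. Vpreb1 and Igll1, which encode the surrogate light chain of pre-B cells, and the recombinase gene Rag1 had one in 6 of 6 BM and 0 of 6 spleen libraries. Fcer2a, which encodes the mature B-cell antigen CD23, had one in 0 of 6 BM and 6 of 6 spleen libraries. Il7r, a gene of B-cell precursors, had one in all 12 libraries, at 9.81 to 12.4 in BM and 7.12 to 10.7 in spleen, and Cr2, a gene of mature B cells, also in all 12, at 29.2 to 32.1 and 21.7 to 25.5. The markers therefore did not all follow one stage, and the cells are called by their tissue below. The summed fold enrichment of the B-lineage list ran from 121 to 132 in BM and from 114 to 140 in spleen. Of 8 macrophage and monocyte markers, 6 or 7 had a peak in a BM library and 3 or 4 in a spleen library, with sums of 39.9 to 57.4 and 24.2 to 33.6. Csf1r itself, Adgre1 and Lyz2 had start peaks in 6 of 6 BM and 0 of 6 spleen libraries. Itgam, which encodes CD11b, had one in all 12, at 3.45 to 4.82 in BM and 9.01 to 12.8 in spleen. The BM values at Csf1r were 6.93, 9.12 and 8.09 in CSF1R+ and 9.17, 8.36 and 9.07 in CSF1R- cells, so the groups overlapped. Of 4 neutrophil markers, 2 or 3 had a peak in a BM library and none in a spleen library, with summed values of 14.6 to 19.2 against 0. All 4 T and NK markers lacked a peak in every library. The part of these other cell types, and of these differences between B-lineage markers, in the BM against spleen values below was not tested.

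Ebf1 and Pax5 act in sequence in early B-lymphopoiesis: Ebf1 specifies the lineage, and Pax5 holds cells in it and represses genes of other lineages. Ikzf1 encodes Ikaros, a zinc-finger regulator of lymphoid development, and Foxo1 encodes a forkhead factor that activates Il7r and the Rag genes. Bach2 and Ets1 restrain mature B cells from becoming plasma cells. Such genes are controlled by enhancers spread over introns and flanking DNA, which can open and close with the stage of the cell while the promoter stays open.

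A region is named by its gene and by the distance in kb of its summit from the gene's start, counted along the gene, so that Pax5+43.0 lies 43.0 kb downstream of the Pax5 start and Pax5-17.2 lies 17.2 kb upstream. The 200 bases around the summit are printed for the regions on which the results turn, from the plus strand of GRCm38. Capitals mark letters of the motifs counted below. The first set had a peak in 6 of 6 spleen and 0 of 6 BM libraries. Pax5+43.0 (chr4:44667433-44667632) lies in intron 5, Ebf1+92.7 (chr11:44709947-44710146) in intron 6 and Bach2+97.1 (chr4:32335786-32335985) in intron 2 of their genes.
Pax5+43.0: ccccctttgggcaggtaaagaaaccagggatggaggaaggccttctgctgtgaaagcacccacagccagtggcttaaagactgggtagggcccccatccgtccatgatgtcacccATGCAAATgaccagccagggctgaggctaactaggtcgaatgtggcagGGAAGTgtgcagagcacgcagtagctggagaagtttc
Ebf1+92.7: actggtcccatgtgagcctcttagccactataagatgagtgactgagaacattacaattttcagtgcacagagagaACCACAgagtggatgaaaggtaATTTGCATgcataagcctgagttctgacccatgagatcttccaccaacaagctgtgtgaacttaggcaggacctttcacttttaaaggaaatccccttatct
Bach2+97.1: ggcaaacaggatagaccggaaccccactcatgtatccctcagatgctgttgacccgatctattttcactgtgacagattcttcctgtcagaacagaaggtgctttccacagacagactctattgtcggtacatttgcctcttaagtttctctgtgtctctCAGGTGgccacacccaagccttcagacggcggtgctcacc

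The second set had a peak in 6 of 6 BM and 0 of 6 spleen libraries. Pax5-17.2 (chr4:44727617-44727816) is intergenic, Ebf1+384.9 (chr11:45002103-45002302) lies in intron 15, Foxo1+14.7 (chr3:52282912-52283111) in intron 1, Bach2+241.7 (chr4:32480395-32480594) in intron 3 and Ets1+10.3 (chr9:32706178-32706377) in intron 1.
Pax5-17.2: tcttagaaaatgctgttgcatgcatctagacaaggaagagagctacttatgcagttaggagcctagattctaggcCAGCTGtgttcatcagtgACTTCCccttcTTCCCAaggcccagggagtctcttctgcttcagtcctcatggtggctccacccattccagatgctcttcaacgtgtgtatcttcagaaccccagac
Ebf1+384.9: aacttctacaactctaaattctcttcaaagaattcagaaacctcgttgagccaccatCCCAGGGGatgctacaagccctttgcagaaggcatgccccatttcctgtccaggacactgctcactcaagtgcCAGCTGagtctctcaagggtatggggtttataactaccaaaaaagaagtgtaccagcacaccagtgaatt
Foxo1+14.7: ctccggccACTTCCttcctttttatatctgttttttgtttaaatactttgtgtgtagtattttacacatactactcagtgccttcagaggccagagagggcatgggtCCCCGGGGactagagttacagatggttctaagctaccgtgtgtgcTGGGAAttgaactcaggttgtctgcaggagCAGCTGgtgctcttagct
Bach2+241.7: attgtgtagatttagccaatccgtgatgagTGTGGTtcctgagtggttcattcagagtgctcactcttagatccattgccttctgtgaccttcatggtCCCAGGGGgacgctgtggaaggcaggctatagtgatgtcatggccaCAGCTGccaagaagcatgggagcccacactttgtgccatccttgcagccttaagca
Ets1+10.3: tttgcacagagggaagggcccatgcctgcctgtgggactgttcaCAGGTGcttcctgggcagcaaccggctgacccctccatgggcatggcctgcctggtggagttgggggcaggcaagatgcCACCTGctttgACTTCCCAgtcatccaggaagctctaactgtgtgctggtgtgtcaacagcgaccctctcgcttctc

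The third set was open in all 12 libraries and showed the largest differences in peak height between the tissues. Ebf1+64.9 (chr11:44682111-44682310) lies in intron 6 and Bach2+162.9 (chr4:32401583-32401782) in intron 2. Ets1-10.0 (chr9:32685933-32686132) lies upstream of the principal Ets1 start but inside a longer annotated transcript.
Ebf1+64.9: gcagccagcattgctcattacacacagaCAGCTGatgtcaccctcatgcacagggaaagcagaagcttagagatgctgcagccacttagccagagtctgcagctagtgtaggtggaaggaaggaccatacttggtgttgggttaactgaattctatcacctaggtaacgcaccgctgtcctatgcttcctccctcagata
Bach2+162.9: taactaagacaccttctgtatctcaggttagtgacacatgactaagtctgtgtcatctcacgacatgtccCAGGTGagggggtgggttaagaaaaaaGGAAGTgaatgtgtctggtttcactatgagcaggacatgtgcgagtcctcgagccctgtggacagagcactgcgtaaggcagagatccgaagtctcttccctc
Ets1-10.0: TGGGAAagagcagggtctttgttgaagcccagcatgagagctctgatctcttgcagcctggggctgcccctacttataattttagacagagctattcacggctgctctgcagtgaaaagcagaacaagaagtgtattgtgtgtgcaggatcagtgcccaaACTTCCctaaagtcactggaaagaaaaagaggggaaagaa

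The promoters of all 6 genes were open in both tissues. Of the 280 regions, 91 (32.5%) had a peak in all 12 libraries, beside 30.1% of all regions. Regions that overlapped a start of the 6 genes were among them in each case. The height of a peak is given as its fold enrichment, the ratio of reads at the summit to the local background that the peak caller expects. At the Ets1 start (Ets1+0.0, chr9:32695560-32696567) it was 17.4, 16.6 and 17.5 in BM CSF1R+, 19.4, 17.4 and 17.3 in BM CSF1R-, 19.5, 18 and 17.7 in spleen CSF1R+ and 19.2, 18.4 and 17.8 in spleen CSF1R- cells. The BM CSF1R+ values lay below those of both spleen groups and the BM CSF1R- values overlapped them, and the log2 difference between BM and spleen after quantile normalization was 0.05 (95% interval -0.07 to 0.17, adjusted p = 0.49, limma). Without normalization it was -0.07 (adjusted p = 0.28), so its direction depended on the normalization. Ebf1-0.1, at the Ebf1 start, ranged from 12.7 to 14.6 in BM and from 11.9 to 13.3 in spleen, with a log2 difference of 0.24 ± 0.07 (SE, adjusted p = 0.011), a call that was lost at 0.10 with absent peaks set to the lowest value. Foxo1+0.0 ranged from 8.68 to 11.3 in BM and from 11.6 to 13.4 in spleen and had the highest mean over 12 libraries in its window. Its log2 difference was -0.27 ± 0.08 (adjusted p = 0.01), and its BM and spleen values did not overlap. Pax5-0.3 covers the RefSeq start of Pax5 and was low, at 3.62 to 4.95 in BM and 5.11 to 6.85 in spleen. Its log2 difference was -0.46 ± 0.09 (adjusted p = 0.00077). Bach2-0.1 and the 2 start regions of Ikzf1, Ikzf1-0.1 and Ikzf1+4.2, had log2 differences of -0.12, -0.12 and -0.07 that did not pass the test (adjusted p = 0.37, 0.32 and 0.58). They gained a call under the same setting, at -0.44, -0.56 and -1.19, and Ikzf1-0.1 also with the mean of several peaks, at -0.45. The deposited values at Ikzf1+4.2 overlapped, at 4.42 to 5.74 in BM and 4.58 to 6.44 in spleen, and its difference without normalization was -0.15. That setting fills absent peaks before quantile normalization, and spleen libraries had peaks in fewer of all regions. The -1.19, and the 0.10 at Ebf1-0.1, are therefore not read as differences in deposited height.

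**Figure D1:**
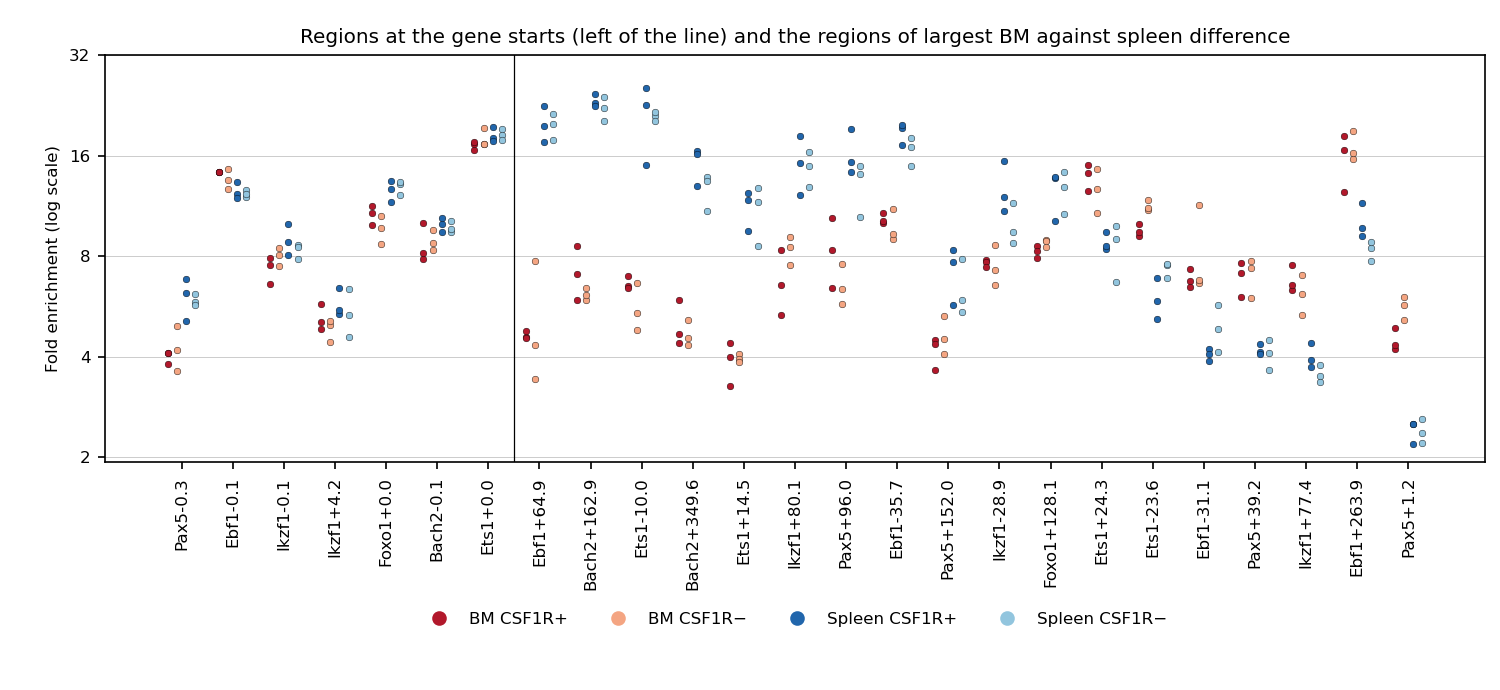
Fold enrichment (log scale) of each library, as points coloured by group, at the 7 regions on the starts of the 6 genes and at up to 2 regions per direction and window with the largest difference between BM and spleen among those called with no overlap of the tissues. At the start regions values run from 3.62 at Pax5-0.3 to 19.5 at Ets1+0.0, and Ebf1+64.9 lies between 3.43 and 7.72 in BM and between 17.6 and 22.6 in spleen.

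BM and spleen differed away from the promoters, in which regions were open. Of the 280 regions, 22 (7.86%) had a peak in 6 of 6 spleen and 0 of 6 BM libraries, where 2.01% of all regions did so. In the opposite direction 11 (3.93%) had a peak in 6 of 6 BM and 0 of 6 spleen libraries, where 11.2% of all regions did. Each such region gives p = 0.00216 in a two-sided exact test of 6 against 6 libraries and an adjusted p of 0.0164 over all regions. The windows held 6 spleen-only regions at Ets1, 5 at Ebf1, 5 at Bach2, 3 at Pax5, 2 at Ikzf1 and 1 at Foxo1. They held 4 BM-only regions at Ebf1, 2 each at Ikzf1 and Bach2, and 1 each at Pax5, Foxo1 and Ets1. A further 58 regions had a peak in 1 to 5 BM libraries and none in spleen, 44 in 1 to 5 spleen libraries and none in BM, and 54 in both tissues but not in all libraries. Spleen lists were shorter, with 43407 to 50392 peaks against 65832 to 76530 in BM. A spleen library had a peak in 41.1% to 48.1% of all regions and in 54.6% to 65.7% of the 280, whereas a BM library had one in 62.5% to 73.5% of all regions and in 53.2% to 57.1% of the 280. With every list shortened to an equal length, 203 of the 280 regions kept a peak, of which 42 (20.7%) were spleen-only and 4 (1.97%) BM-only, beside 6.07% and 6.8% of all regions that kept one. The lists hold no read counts, so depth per library is unknown, and a missing peak means that none was called, not that the site was closed.

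**Figure D2:**
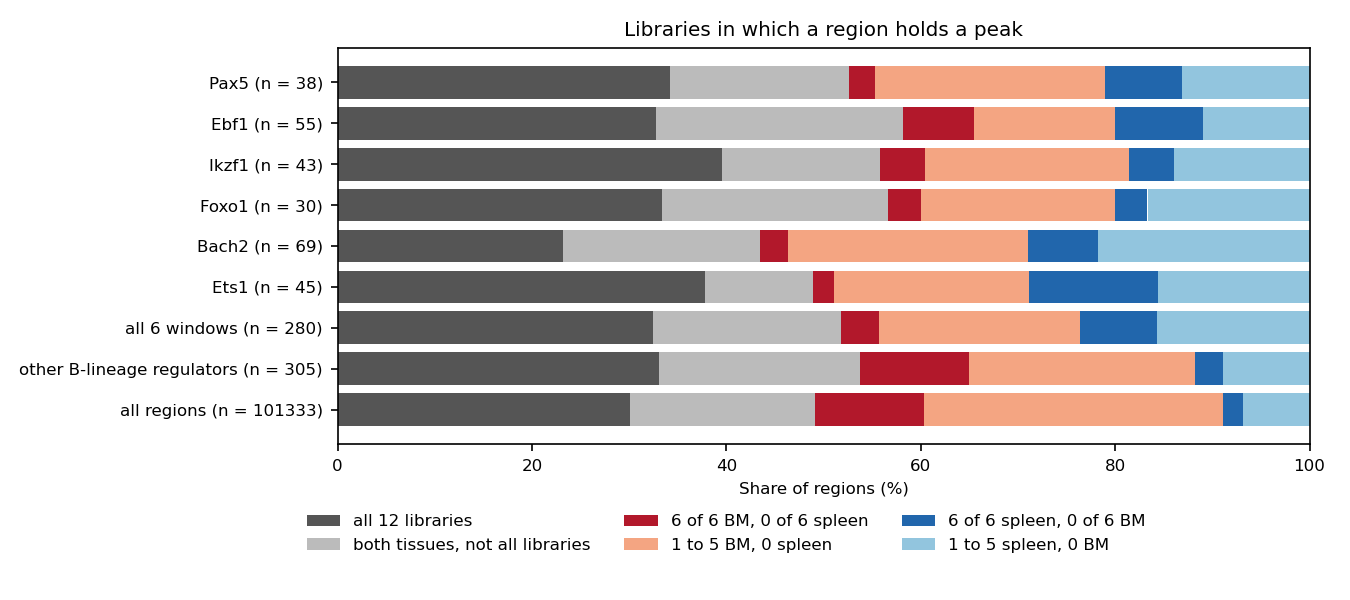
Share of regions (%) by the libraries in which they hold a peak, as stacked bars for each window, for all 280 regions, for 305 regions at other B-lineage regulators and for all 101333 regions. Spleen-only regions (dark blue) make up 7.86% of the 280 and 2.01% of all regions, and BM-only regions (dark red) 3.93% and 11.2%.

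The spleen-only regions lay inside the genes. All 22 were within the body of the gene of their window, 18 in an intron of the principal transcript and 4 in the upstream part that only a longer Ets1 transcript covers. Of the 11 BM-only regions 6 were inside the gene and 5 intergenic, and of all 280 regions 200 were inside the gene. The windows were laid around the genes, and the share inside genes was not counted over all regions. The placement is therefore not read as a trait of spleen-only regions. Intron 6 of Ebf1 held 21 regions, of which 4 were spleen-only and none BM-only. Intron 2 of Bach2 held 24, of which 3 were spleen-only and none BM-only. Both introns were singled out after their values were seen. Of the 200 regions inside the genes, 11% were spleen-only and 3% BM-only. Median length was 486 bases for spleen-only, 453 for BM-only and 660 for regions open in all 12 libraries, and the median of their mean fold enrichment was 8.15, 6.995 and 10.6. Over the whole genome these medians of fold enrichment were 7.81, 7.89 and 13.2.

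**Figure D3:**
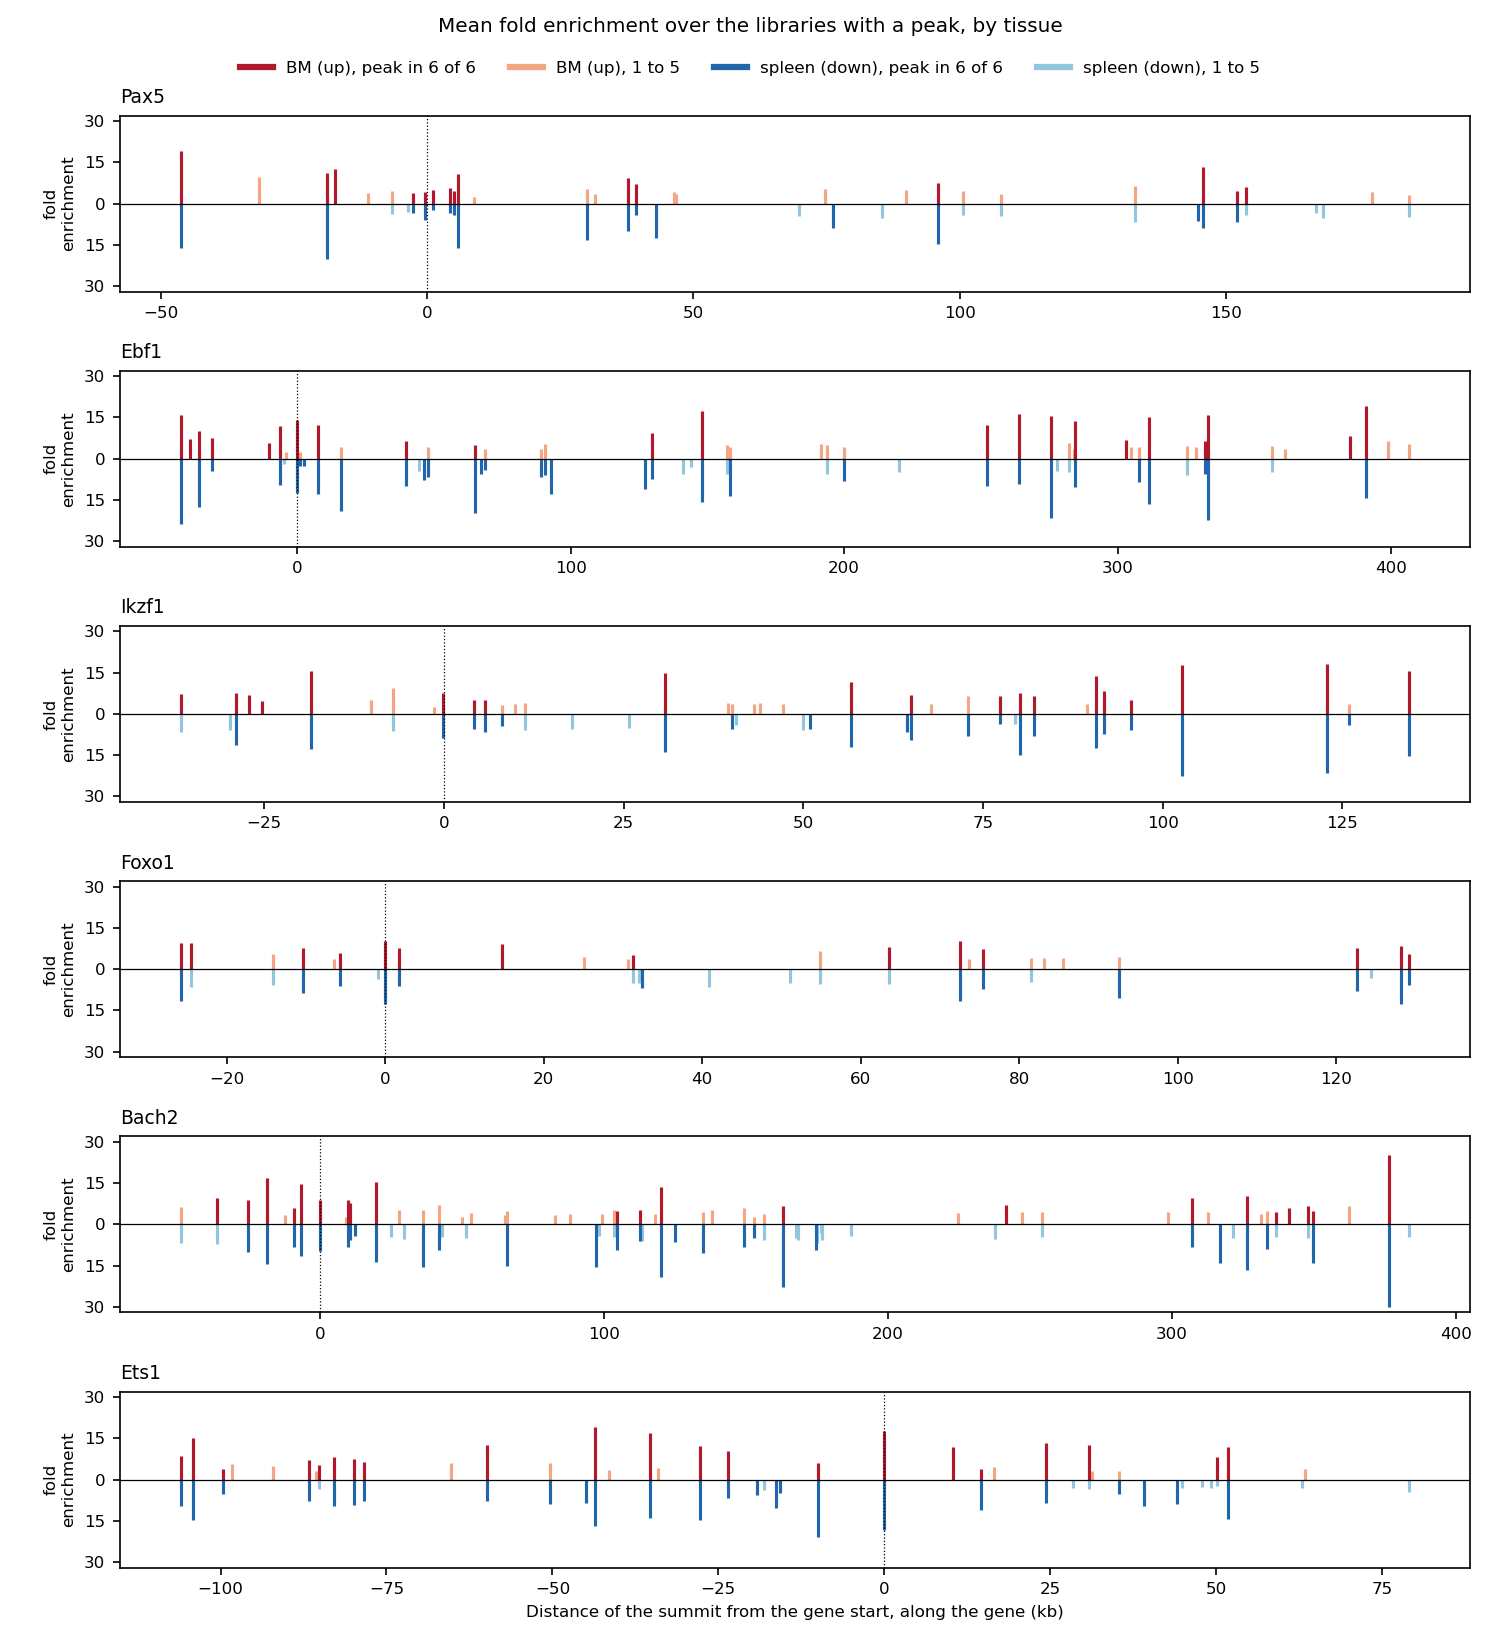
Mean fold enrichment (vertical axis, BM upward and spleen downward) over the libraries with a peak, against the distance of the summit from the gene's start in kb, for the 6 windows. Dark lines have a peak in 6 of 6 libraries of the tissue and pale lines in 1 to 5. Dark blue lines with nothing above them are the spleen-only regions, such as Bach2+97.1 at a mean of 15.7.

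Among the spleen-only regions, Bach2+97.1 (chr4:32335545-32336233) was the highest. Its fold enrichment was 18, 16.9 and 13.9 in spleen CSF1R+ and 15.7, 14.8 and 14.9 in spleen CSF1R- cells. A second region of Bach2, Bach2+317.0 in intron 4, had 17.1, 15 and 13.2 in spleen CSF1R+ and 13.8, 14 and 11 in spleen CSF1R- cells. Both groups of spleen cells therefore carried these peaks at overlapping heights. In Pax5, Pax5+43.0 (chr4:44667384-44667950) had 13.5, 12.5 and 12.6 in spleen CSF1R+ and 11.8, 13.8 and 11.5 in spleen CSF1R- cells. It lies in intron 5, which is known to hold a B-lineage enhancer. That intron held 6 regions here, 2 of them with a peak in all 12 libraries, and which region matches the enhancer was not tested. Pax5+76.2 in intron 6 was more variable than Pax5+43.0, at 11.8, 12.9 and 9.01 against 5.91, 4.43 and 9.82. Its log2 difference of 0.66 between CSF1R+ and CSF1R- cells of the spleen did not pass the test (adjusted p = 0.85, limma). In Ebf1, Ebf1+92.7 (chr11:44709744-44710452) ranged from 10.8 to 14.9 and Ebf1+127.2 from 9.74 to 13 over the 6 spleen libraries. Ets1-16.3, inside the longer Ets1 transcript, ranged from 7.76 to 12, and Ets1+39.2 in intron 5 from 8.62 to 10.7. The spleen-only regions of Ikzf1 and Foxo1 were lower, with means of 5.62 at Ikzf1+50.9, 6.61 at Ikzf1+64.4 and 6.98 at Foxo1+32.4.

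The strongest BM-only region lay upstream of Pax5. Pax5-17.2 (chr4:44727507-44727903) had a fold enrichment of 9.45, 12.2 and 11.7 in BM CSF1R+ and 15.7, 13.4 and 13.1 in BM CSF1R- cells. The 3 CSF1R- values were above the 3 CSF1R+ values, but the log2 difference of -0.22 did not pass the test (adjusted p = 0.60, limma). Ets1+10.3 (chr9:32705821-32706474) had 11.1, 12.7 and 13 in CSF1R+ and 11.2, 12.3 and 11.7 in CSF1R- cells of the BM. Foxo1+14.7 had 6.11, 9.23 and 10 against 10.1, 8.7 and 9.83. At both, the 2 groups of BM cells overlapped. Ebf1 had BM-only regions on either side of its start, Ebf1-39.2 with a mean of 7.01 and Ebf1+384.9 with a mean of 8.16. At Ebf1-39.2 the 3 CSF1R- values (8.27, 8.94 and 8.08) were also above the 3 CSF1R+ values (5.6, 5.12 and 6.06). Its log2 difference of -0.51 did not pass the test (adjusted p = 0.41, limma). Ikzf1-27.1 and Ikzf1-25.3 lie upstream of Ikzf1, with means of 6.87 and 4.83. Bach2+341.3, with a mean of 5.79, lies in coding exon 7 of Bach2.

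**Figure D4:**
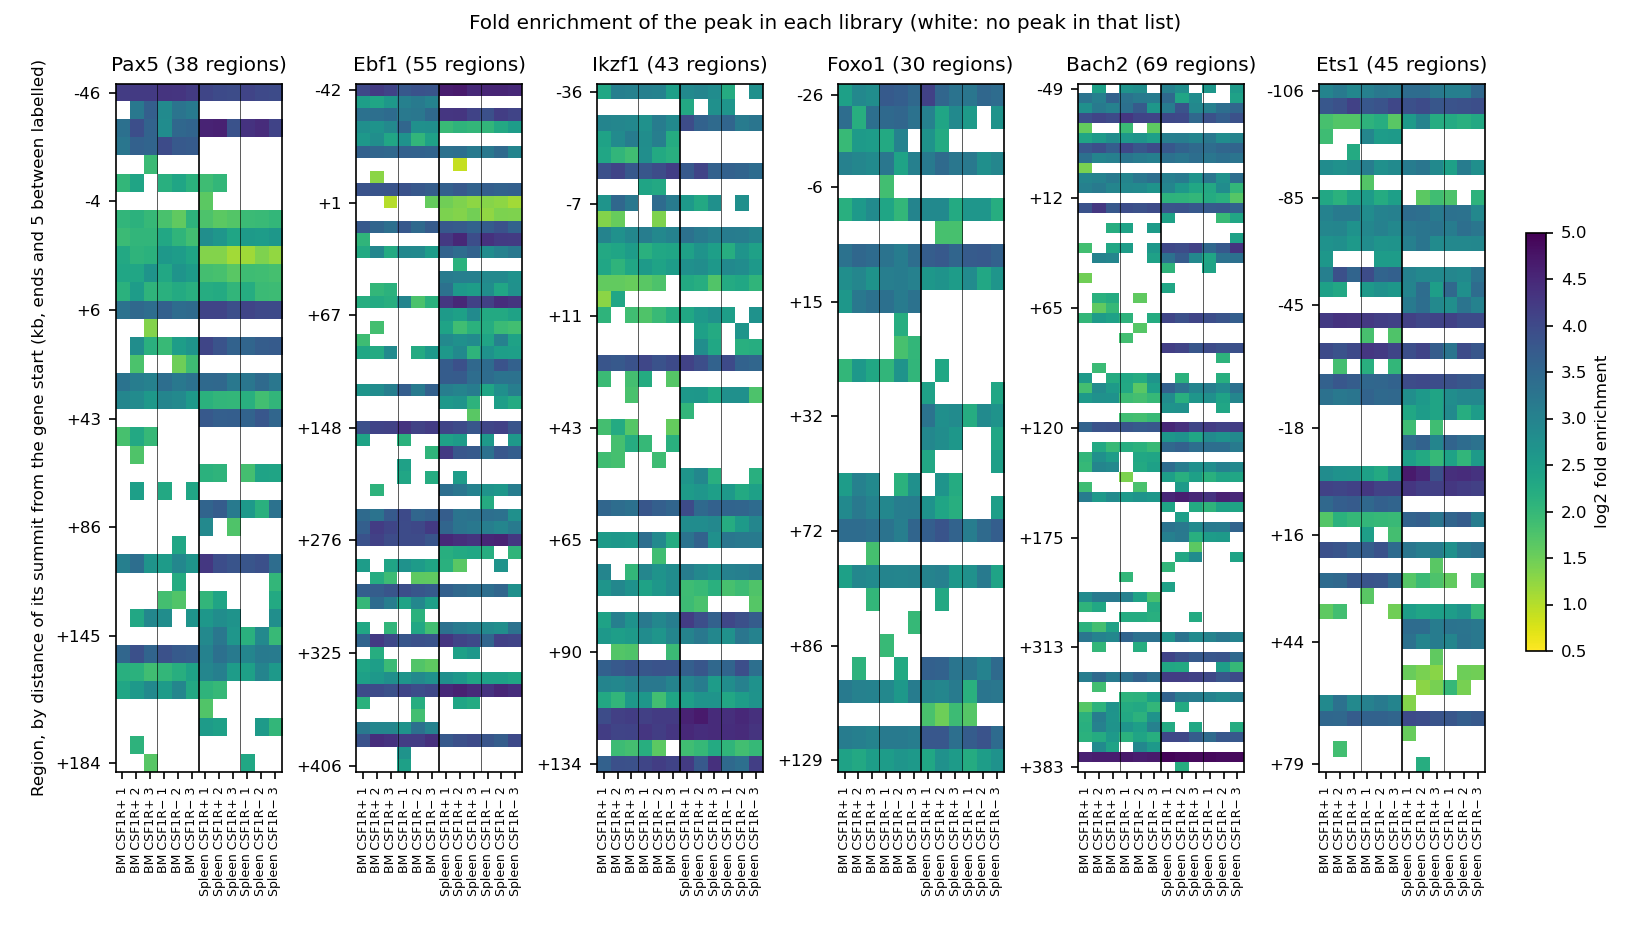
Log2 fold enrichment of the peak in each of the 280 regions (rows, ordered by distance from the gene's start in kb) and 12 libraries (columns), one panel per window, with white where the list has no peak. The 22 spleen-only and 11 BM-only regions appear as rows filled on one side of the central line.

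Where a region was open in both tissues, its height also differed, in both directions. Of the 91 regions with a peak in all 12 libraries, 28 were higher in BM (30.8%, beside 25.4% of the 30492 regions tested) and 33 higher in spleen (36.3%, beside 26.6%), at an adjusted p under 0.05 in limma on quantile-normalized log2 values. The median log2 difference (BM minus spleen) was -0.07 over the 91, beside -0.0045 over all regions tested. Without scaling, 22 were higher in BM and 36 in spleen, while the median of all regions moved to -0.11 and the calls over all regions to 5410 and 11716. With absent peaks set to the lowest value before quantile normalization, which tests 217 of the 280 regions, 27 were higher in BM and 128 in spleen (12.4% and 59%, beside 25.9% and 31.9% of all regions). Spleen libraries had more absent peaks to fill, so these counts are not read as a balance of peak heights. Ebf1 had more regions higher in BM (10) than in spleen (6), whereas Ikzf1 had 3 and 6, Foxo1 1 and 3, and Bach2 4 and 7. Pax5 had 5 in each direction, and Ets1 had 5 higher in BM and 6 in spleen. The difference was at least 2-fold in 6 of the 61 called regions. Of these, 5 were higher in spleen and 1, Pax5+1.2, in BM.

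The 5 regions at least 2-fold higher in spleen were at Ebf1, Bach2 and Ets1. Ebf1+64.9 (chr11:44682020-44682442) had 4.58, 4.77 and 4.54 in BM CSF1R+, 7.72, 3.43 and 4.34 in BM CSF1R-, 19.6, 22.6 and 17.6 in spleen CSF1R+ and 17.8, 21.4 and 19.9 in spleen CSF1R- cells. The tissues did not overlap, and the log2 difference was -1.96 ± 0.15 (SE, adjusted p = 1.6e-07), or 3.9-fold. Bach2+162.9 (chr4:32401309-32401991) had 8.59, 5.92 and 7.1 in BM CSF1R+, 5.93, 6.41 and 6.12 in BM CSF1R-, 23, 24.6 and 22.6 in spleen CSF1R+ and 20.3, 23.9 and 22.2 in spleen CSF1R- cells. Its log2 difference was -1.68 ± 0.10 (adjusted p = 3.4e-08). Ets1-10.0 (chr9:32685459-32686352) ranged from 4.81 to 6.98 in BM and from 15 to 25.5 in spleen, a log2 difference of -1.67 ± 0.11 (adjusted p = 6.0e-08). Bach2+349.6, just downstream of Bach2, ranged from 4.35 to 5.92 and from 10.9 to 16.5 (log2 difference -1.45 ± 0.10, adjusted p = 6.1e-08). Ets1+14.5 in intron 1 ranged from 3.28 to 4.38 and from 8.59 to 12.8 (log2 difference -1.43 ± 0.12, adjusted p = 3.3e-07). Among Pax5 and Ikzf1 regions with a peak in all 12 libraries, the largest differences toward spleen were smaller. Pax5+96.0 in intron 6 ranged from 5.76 to 10.4 in BM and from 10.5 to 19.3 in spleen (log2 difference -0.91 ± 0.14). Ikzf1+80.1 in intron 7 ranged from 5.32 to 9.11 and from 12.2 to 18.3 (log2 difference -0.93 ± 0.11). Further regions higher in spleen were Ebf1-35.7 and Foxo1+128.1, between genes, with log2 differences of -0.73 ± 0.07 and -0.50 ± 0.10. Pax5+152.0 in intron 8 and Ikzf1-28.9, upstream of Ikzf1, had -0.56 ± 0.12 and -0.51 ± 0.12.

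By the mean over all 12 libraries, the highest peaks of 3 windows lay on a neighbouring gene. Bach2+376.5, on the start of Casp8ap2, was the highest of the 280 regions, with 23.9 to 26.1 in BM and 29.3 to 30.9 in spleen (log2 difference -0.10 ± 0.03, adjusted p = 0.0056). Pax5-46.1, on the start of Zcchc7, had 18.4 to 20.1 in BM and 15.5 to 16.9 in spleen (log2 difference 0.36 ± 0.05, adjusted p = 5.3e-05). In spleen alone the highest Pax5 region was instead Pax5-18.7, an intergenic one named after its values were seen, with a mean of 20.2. Ikzf1+102.7, inside Fignl1, had 15.4 to 18.7 in BM and 20.8 to 25.5 in spleen (log2 difference -0.22 ± 0.05, adjusted p = 0.0011). In BM alone Ikzf1+122.9, on the start of Fignl1 and also named after its values were seen, was higher, with a mean of 18.2 against 17.7. At Ebf1 the highest by this mean was intergenic, Ebf1-42.3, with 13.6 to 18.7 in BM and 22.4 to 25.6 in spleen (log2 difference -0.48 ± 0.05, adjusted p = 1.7e-06). In BM alone Ebf1+390.9, also named after its values were seen, was highest, with a mean of 19.0. Without normalization the log2 differences were -0.26 at Bach2+376.5, 0.25 at Pax5-46.1, -0.35 at Ikzf1+102.7 and -0.59 at Ebf1-42.3.

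Regions higher in BM lay close to regions higher in spleen in some introns. Pax5+1.2 (chr4:44709096-44709456), in intron 1, had 4.87, 4.22 and 4.34 in BM CSF1R+, 6.04, 5.71 and 5.13 in BM CSF1R-, 2.52, 2.51 and 2.18 in spleen CSF1R+ and 2.2, 2.6 and 2.36 in spleen CSF1R- cells. The log2 difference was 1.10 ± 0.07 (adjusted p = 4.7e-08), although the region is a low one. Pax5+39.2 in intron 5 ranged from 5.98 to 7.72 in BM and from 3.65 to 4.48 in spleen (log2 difference 0.82 ± 0.11, adjusted p = 2.3e-05), while Pax5+43.0 in the same intron was spleen-only. Ikzf1+77.4 in intron 7 ranged from 5.34 to 7.53 and from 3.36 to 4.41 (log2 difference 0.85 ± 0.09), close to Ikzf1+80.1, which was higher in spleen. Ebf1+263.9 in intron 7 of Ebf1 ranged from 12.4 to 18.9 in BM and from 7.72 to 11.5 in spleen (log2 difference 0.90 ± 0.09). At Ets1, Ets1-23.6 and Ets1+24.3 were higher in BM by 0.70 ± 0.09 and 0.68 ± 0.11. Absent peaks set to the lowest value before normalization moved 2 of these differences past 0, to -0.49 at Pax5+1.2 and to -0.02 at Ikzf1+77.4, and ended the calls at Pax5+39.2, Ebf1-31.1 and Ebf1-0.1. Spleen libraries had more absent peaks to fill, so these shifts are not read as differences in deposited height. Without normalization the log2 differences were 1.07 at Pax5+1.2, 0.78 at Ikzf1+77.4, 0.75 at Pax5+39.2, 0.74 at Ebf1-31.1 and 0.16 at Ebf1-0.1.

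Few regions separated CSF1R+ from CSF1R- cells of the same tissue by presence. In BM, 2 of the 280 regions had a peak in 3 of 3 CSF1R+ and 0 of 3 CSF1R- libraries (0.714%, beside 0.613% of all regions), and 3 had the opposite (1.07%, beside 0.503%). In spleen no region did so in either direction (0.439% and 0.0336% of all regions). With 3 against 3 libraries an exact test cannot go below p = 0.10. All 5 regions were in introns of Pax5 or Bach2 and low. Pax5+46.4 had 3.5, 4.85 and 3.97 and Bach2+298.6 had 4.36, 3.59 and 5.29 in BM CSF1R+ cells, and neither had a peak in any other group. Bach2+118.0 had 3.69, 3.59 and 3.85 in BM CSF1R- cells alone. The bases around the summit of Bach2+118.0 are mostly a simple repeat of the letters TG. Whether the repeat affected the calling of this low peak was not tested, so it is not read as a regulatory site. Bach2+254.2 had 4.69, 4.7 and 4.45 in BM CSF1R- cells and 4.75 in 1 spleen CSF1R+ library. Bach2+333.5 had 4.27, 4.3 and 5.44 in BM CSF1R- cells and 7.39 to 11.8 in all 6 spleen libraries, so that BM CSF1R+ cells were the group without it. Single libraries decided these counts: without BM CSF1R+ replicate 1 the first count was 4, without BM CSF1R- replicates 2 or 3 the second was 6 or 5, and leaving out 1 spleen library gave 1 to 5 regions for spleen CSF1R+.

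Peak height gave no call between CSF1R+ and CSF1R- cells. The study itself, with a count model on reads, reported regions that differed between these groups in BM and none in spleen. The test here is of fold enrichment at called peaks, so the measures differ and the study's result was not retested. In BM 0 of 113 regions with a peak in all 6 libraries passed limma's adjusted p of 0.05 (0% of the 50358 tested). An unadjusted p under 0.05 was found for 8, beside 4782 of all 50358. In spleen 0 of 137 passed (0% of 35953), and 5 had an unadjusted p under 0.05, beside 2064 of all 35953. The smallest adjusted p was 0.32 in BM and 0.84 in spleen. None of the estimates reached 2-fold, but 95% intervals reached log2 differences of 1.29 in BM and 1.24 in spleen, so that a 2-fold difference at single regions was within the error. The deposited values of the 3 CSF1R- libraries were all above those of the 3 CSF1R+ libraries in 18 of the 113 BM regions (15.9%, beside 18.4% of all tested), and the reverse held in 4 (3.54%, beside 2.1%). In spleen CSF1R+ was above in 10 of 137 (7.3%, beside 15.3%) and CSF1R- in 3 (2.19%, beside 0.751%).

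The regions with the smallest p in BM, chosen after their values were seen, were at Bach2, Foxo1 and Ebf1. Bach2+112.7 in intron 2 had 5.89, 6.64 and 6.52 in CSF1R+ and 3.75, 3.57 and 3.95 in CSF1R- cells (log2 difference 0.81 ± 0.15, unadjusted p = 0.000179). Foxo1-25.7, upstream of Foxo1, had 5.45, 7.43 and 6.92 against 13.2, 12.6 and 11.2 (log2 difference -0.81 ± 0.16, unadjusted p = 0.000358). Ebf1-42.3, upstream of Ebf1, had 16.2, 18.7 and 17.1 against 13.6, 14.6 and 14.3 (log2 difference 0.40 ± 0.09, unadjusted p = 0.000981). All 3 had the same limma adjusted p of 0.32. The promoters of the 6 genes had quantile-normalized CSF1R differences in BM of -0.04 at Pax5-0.3, 0.19 at Ebf1-0.1, -0.02 at Ikzf1-0.1, 0.26 at Foxo1+0.0, 0.07 at Bach2-0.1 and 0.04 at Ets1+0.0. In spleen those differences were -0.10, -0.14, -0.07, -0.18, -0.13 and -0.13, and none of them passed the test in either tissue. Without normalization the sign turned in BM at Bach2-0.1 (-0.03) and Ets1+0.0 (-0.07), and in spleen at Pax5-0.3 (0.02), Ebf1-0.1 (0.02), Ikzf1-0.1 (0.10) and Bach2-0.1 (0.03). Over all members tested, it turned for 24 of 113 regions in BM and 49 of 137 in spleen, while the median of all regions moved to -0.10 in BM and 0.11 in spleen, so no direction is read from these small differences. In a limma test of the difference between the BM and spleen effects of CSF1R, 0 of 91 regions passed (0% of 30492, smallest adjusted p 0.31). An unadjusted p under 0.05 was found for 11, beside 2506 of all 30492.

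**Figure D5:**
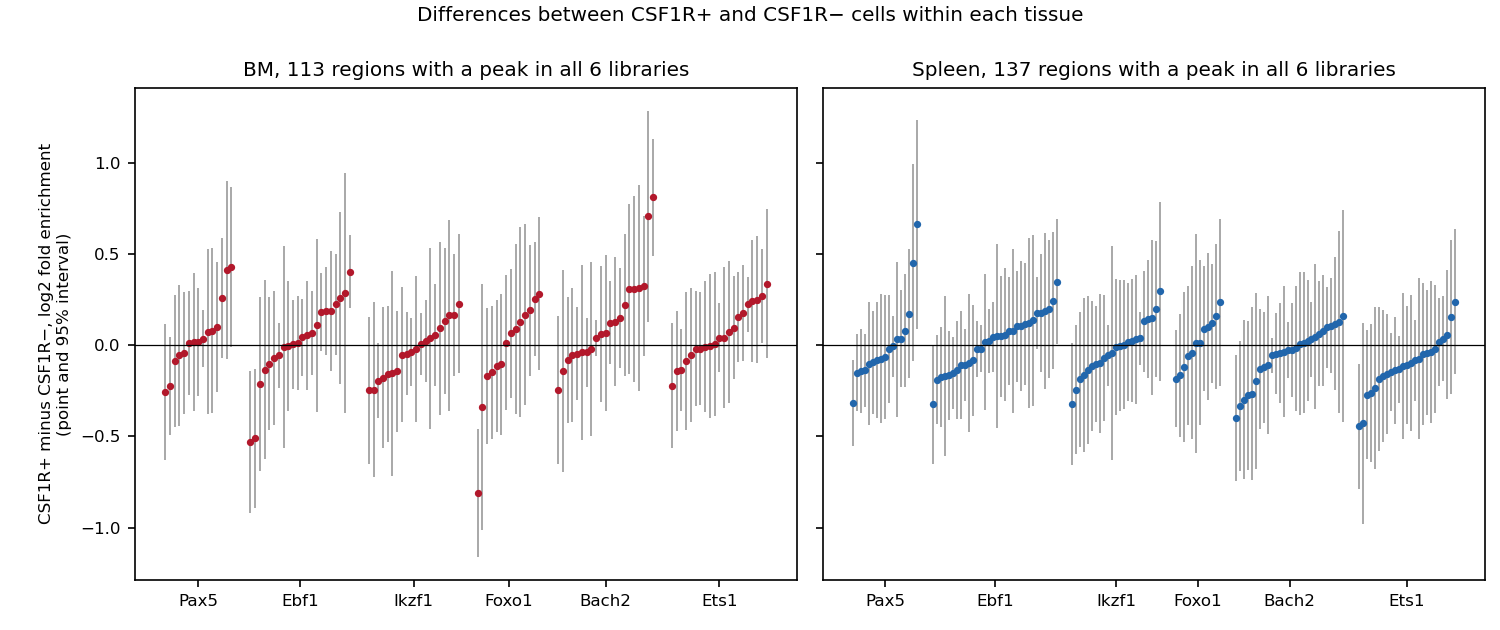
Log2 difference in fold enrichment between CSF1R+ and CSF1R- cells (points, with 95% intervals) for the 113 BM and 137 spleen regions with a peak in all 6 libraries, ordered within each window. Points run from -0.81 at Foxo1-25.7 to 0.81 at Bach2+112.7 in BM, and in spleen 78 of 137 lie below 0, beside 19673 of all 35953 regions tested.

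Motif letters were counted in the 200 bases around each summit, by presence pattern and without a test. The EBF motif (CCCNNGGG) was in 4 of 11 BM-only and 0 of 22 spleen-only regions, beside 8.93% of the 280 and 10.2% of all regions. Over the genome it was in 16% of BM-only and 4.18% of spleen-only regions. The 4 carriers include Ebf1+384.9, Foxo1+14.7 and Bach2+241.7, printed above. An E2A motif (CAGGTG or CAGCTG), the E-box bound by the product of Tcf3, was in 9 of 11 BM-only and 5 of 22 spleen-only regions, beside 33.6% of all regions. Genome-wide BM-only and spleen-only regions had it in 52.3% and 25.4%. The octamer letters of POU2F (ATTTGCAT) were in 2 of 22 spleen-only regions, which are Pax5+43.0 and Ebf1+92.7, and in 1 of 11 BM-only regions. All regions had them in 2.64%, and genome-wide spleen-only regions in 8.3%. The ETS letters (GGAAGT) were in 6 of 11 and 9 of 22, beside 29.4% of all regions. The RUNX letters (TGTGGT) were in 3 of 11 and 6 of 22, beside 21.3%, and the IKAROS letters (TGGGAA) in 4 of 11 and 3 of 22, beside 14.4%. Genome-wide BM-only and spleen-only regions had ETS letters in 26.9% and 40.8%, RUNX letters in 25.8% and 20.8%, and IKAROS letters in 14.1% and 13.5%. The PU.1 letters (GAGGAAGT), which contain the ETS letters, were in 2 of 11 and 2 of 22, beside 7.97% of all regions. The FOXO (GTAAACA) and AP-1/BACH (TGAGTCA) letters were in none of the 33 regions, and the CTCF letters (CNAGNNGGC) in 1, a spleen-only region. These motifs were found in 2.69%, 5.04% and 18% of all regions. Genome-wide BM-only and spleen-only regions had CTCF letters in 16.2% and 6.44% and PU.1 letters in 7.43% and 11.9%. They had FOXO letters in 2.89% and 3.05%, and AP-1/BACH letters in 4.97% and 8.35%. Both strands were searched, and ETS and IKAROS letters can overlap, as in Ets1+10.3.

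Other regulators of the B lineage were set beside these windows. The bodies of 18 further genes, with 10 kb on each side, held 305 regions, of which 101 (33.1%) were open in all 12 libraries. Of the 305, 34 (11.1%) were BM-only and 9 (2.95%) spleen-only, beside 11.2% and 2.01% of all regions. The 6 windows reached farther beyond their genes than 10 kb, so their shares and these cover unlike stretches of sequence. In the windows, 11% of regions inside the 6 genes and 0% of those between genes were spleen-only, and 3% and 6.67% were BM-only. Erg, an ETS-family factor of stem and progenitor cells, held 14 of the 34 BM-only regions among its 34 regions. Bcl11a, a zinc-finger factor needed for B-cell development, held 3 of the 9 spleen-only regions, and Runx1, which encodes a Runt-domain factor, held 5 BM-only and 2 spleen-only regions. By height, 33 of the 101 regions were higher in BM (32.7%, beside 25.4% of all tested) and 26 in spleen (25.7%, beside 26.6%), with a median log2 difference of 0.03. Runx3 and Ikzf3, which encodes the Ikaros relative Aiolos, each had 5 of 8 tested regions higher in BM, with 1 and 2 higher in spleen. In the other direction, Irf4 had 0 of 4 higher in BM and 2 in spleen, and Bcl11a had 1 of 7 and 3 of 7. The genes singled out here were chosen after their values were seen. No region of the 18 genes passed the limma test between CSF1R+ and CSF1R- cells in BM (160 tested) or spleen (122 tested). An unadjusted p under 0.05 was found for 13 in BM, beside 4782 of all 50358, and for 2 in spleen, beside 2064 of all 35953.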

How the data were processed

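The 12 ATAC-seq libraries were sequenced paired-end, trimmed with cutadapt, aligned to mm10 with BWA and called with MACS2 in each library by the authors, after removal of duplicates and blacklisted regions; versions are not given in the sources used here. The deposited lists give for every peak a fold enrichment (ratio), −log10 values for p and q (p-value and q-value), and the other column used, the summit's offset in bases. Nothing was counted per region, so per-library depth is unknown.

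Peaks that shared at least 1 base were merged, and regions wholly inside the 6 windows were taken. Where a library had several peaks in a region, its highest was used. Presence was compared by a two-sided exact Fisher test (scipy 1.17.1) of 6 BM against 6 spleen libraries, adjusted (Benjamini-Hochberg) over all 101333 regions. Log2 fold enrichment, quantile normalized, was tested with limma 3.58.1 (lmFit, eBayes with trend) over all regions with a peak in every library of the fit: 30492 for 12 libraries, 50358 for BM and 35953 for spleen. Genes come from GENCODE and RefSeq annotation of GRCm38, whose chromosomes hold all the peaks. Named regions were those on a start of the gene, up to 2 of largest tissue difference per direction and window (called, with no overlap of the 6 BM and 6 spleen values), up to 2 BM-only and spleen-only regions of highest mean, regions that separated CSF1R+ from CSF1R- libraries by presence, and the highest region per window. Others are stated as chosen after their values were seen. Windows, lists and motifs were chosen with earlier results of these data known. The single-cell RNA files and the joined peak file were not used here. The fits between BM and spleen and between CSF1R+ and CSF1R- within each tissue were run on simulated data. The test of the difference between the CSF1R effects was not.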

Additional observations from a re-analysis of the deposited data

Results flagged for a closer look

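Among the 79 sets of 6 values (1 tissue at 1 named region), 6 held a library farther from its neighbours than Dixon's 95% limit for 6 values; chance marks about 1 in 20 sets. BM CSF1R- replicate 1 stood above the other BM libraries at Ebf1-31.1 (11.4, others 6.47 to 7.33), Ebf1+64.9 (7.72, others 3.43 to 4.77) and Ets1+0.0 (19.4, others 16.6 to 17.5). BM CSF1R+ replicate 1 stood below them at Ikzf1+102.7 (15.4, others 17.7 to 18.7) and Foxo1+14.7 (6.11, others 8.7 to 10.1). Spleen CSF1R+ replicate 1 stood above the other spleen libraries at Bach2+333.5 (11.8, others 7.39 to 8.98).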

How the results depend on the processing

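Depth per library is unknown, so neither a missing peak nor a small difference in height can be weighed against it. Without 1 library, the 280 regions held 11 to 13 BM-only and 22 to 24 spleen-only regions, 2 to 4 BM CSF1R+ only and 3 to 6 BM CSF1R- only regions, 1 to 5 spleen CSF1R+ only regions and 0 spleen CSF1R- only regions. With lists of equal length the counts moved to 4 BM-only, 42 spleen-only, 0 BM CSF1R+ only, and 1 each for BM CSF1R- only, spleen CSF1R+ only and spleen CSF1R- only regions. A peak over at least 50% of the region left 1 BM CSF1R+ only and 1 BM CSF1R- only region, and a −log10 q of at least 5 left 1 BM CSF1R+ only region. Absent peaks set to the lowest value, in regions with a peak in at least 3 libraries, gave 27 regions higher in BM and 128 higher in spleen of 217 tested (12.4% and 59%, beside 25.9% and 31.9% of all regions; main 28 and 33 of 91), and this setting tests more regions. It also turned the difference at Pax5+1.2 to -0.493 and at Ikzf1+77.4 to -0.0192, and 3 more named regions lost their call (0.0563 at Pax5+39.2, 0.141 at Ebf1-31.1, 0.104 at Ebf1-0.1) and 3 gained one (Ikzf1-0.1, Ikzf1+4.2 and Bach2-0.1); the cause was not tested. Ikzf1-0.1 also gained one with the mean of several peaks (-0.451). Calls between BM and spleen without 1 library stayed at 25 to 27 higher in BM and 29 to 34 higher in spleen.

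With the replicate number as a replicate block, limma gave 28 and 33 regions between BM and spleen, and 0 between CSF1R+ and CSF1R- in BM, in spleen and for the difference between them. Libraries of the same number and tissue correlated in their deviations from group means by 0.0338 to 0.154, all positive. Not every pair passed 0.1, and the numbers were not taken as pairs. Whether such libraries share animals is not given, and these correlations cannot show that they are independent. The exact test of 6 against 6 libraries counts each library as separate. No alternative gave a call between CSF1R+ and CSF1R- at any of the 280 regions. Over all regions, taking the mean of several peaks gave 1 call in BM and 1 in spleen, and the difference between the CSF1R effects gave 2 calls with no scaling and 1 each without Spleen CSF1R+ replicate 3 and without Spleen CSF1R- replicate 3.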
